A study of Mus musculus with 41 samples.

Results

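Transcripts of the Wnt pathway at the cell surface were read in 6 cell lines and 9 tumors of a mouse model of malignant mesothelioma. The set holds 45 genes chosen by name as parts of the pathway, with earlier results of these data known, out of 27197 genes in the count table, and each of the 45 had a row. They are 18 Wnt ligands, 10 Frizzled receptors, 4 coreceptors (Lrp5, Lrp6, Ror1, and Ror2), 8 secreted antagonists (the Sfrp and Dkk families and Wif1), 4 genes of the R-spondin system (Rspo1, Rspo2, Rspo3, and the receptor Lgr5), and Axin2.

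Wnt proteins are secreted lipid-modified ligands that bind a Frizzled receptor together with a coreceptor. With Lrp5 or Lrp6 they stabilize β-catenin, which then acts with TCF and LEF factors on target genes such as Axin2, itself a brake on the pathway, whereas ligands such as Wnt5a signal largely through Ror1 and Ror2 to the cytoskeleton. Secreted antagonists of the Sfrp and Wif families bind Wnts, Dkk1 and Dkk2 bind Lrp5 and Lrp6, and R-spondins act through Lgr receptors to keep Frizzled proteins at the surface. The divergent Dkk3 was counted with the antagonists by its family only.

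The BNC lines (JB81, JB91, and JB97) carry the genotype Bap1-/-;Nf2-/-;Cdkn2ab-/- and the NC lines (JB84, JB87, and JB93) Nf2-/-;Cdkn2ab-/-, so the loss of Nf2 and Cdkn2ab is common to all samples and no normal mesothelium was compared. The Cdkn2ab mice lack Ink4a and Ink4b from the germline, and the conditional alleles (Bap1, Nf2, and p19Arf) were deleted by an adenovirus that expresses Cre from the CMV promoter, injected into the pleural space, so that deletion was not limited to mesothelial cells by the promoter. The mice were young adults of mixed background (FVB and C57BL/6, with 129Ola also named in the methods) and drank cyclosporine A, an immunosuppressant, before and after the injection. The lines grew out of pieces of primary tumors and were used at early passage, and their source tumors are not named in the sources used here. The 9 tumors (B1, B2, B13, B14, B19, B27, B28, B45, and 22) comprise 5 BNC and 4 NC samples by their labels, but the columns of the count table could not be matched to a genotype, so the tumors formed 1 group of mixed genotype. The labels name no treatment of the lines and no age at which a tumor was taken.

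The libraries of the lines held between 12377675 (JB87) and 23936922 (JB81) reads on genes, and those of the tumors between 8158740 (B1) and 21851974 (B45). Levels are given as counts per 1000000 reads (CPM), scaled by TMM over all 15 libraries. The smallest level that 3 counts can show was between 0.124 and 0.232 CPM in the lines. In tumors it was up to 0.856 CPM, in B1, the shallowest, whose low TMM factor (0.43) also raises its CPM. This floor covers counting error only.

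The targeted genes and the markers of the tissue were read first. Bap1 was found at 40.3 (JB81), 41.4 (JB91), and 36.9 CPM (JB97) in BNC lines, against 57.1 (JB84), 56.8 (JB87), and 60.3 CPM (JB93) in NC lines, with a log2 fold change of -0.57 (SE 0.13, adjusted p = 0.039, edgeR). The count covers the whole gene, deleted exons and the rest, so it only partly checks the labels. Nf2 differed by -0.09 (SE 0.18, adjusted p = 0.73, edgeR) on the log2 scale between BNC and NC lines, which share its deletion. Cdkn2a did not exceed 0.551 CPM in any line, and no library held more than 3 counts of Cdkn2b.

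The lines did not look alike in mesothelial markers. Of 9 markers, 6 exceeded 3 counts in JB81 and in JB91, and 8 did in each of the other 4 lines. Their summed level was 127 CPM in JB81 and 127 CPM in JB91, almost all of it Wt1 (123 and 123 CPM). It was 667 CPM in JB97 and 2858, 2159.7, and 3018 CPM in JB84, JB87, and JB93, where mesothelin (Msln) was the most abundant. Krt8 stood at 0.289 and 0.0415 CPM in JB81 and JB91, Krt18 at 0 and 0.0415 CPM, and Msln at 0.207 and 0.415 CPM, while Calb2 was at 0 in every line. Wt1 was present in all 6 lines, but the defining keratins, Msln, and Pdpn were near 0 in 2 of the 3 BNC lines, and in the other, JB97, Krt8 and Krt18 stood at 7.21 and 0.951 CPM.

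Lines within a genotype were also unequally close. Between JB81 and JB91, 4 of 8635 genes with at least 10 CPM differed more than 2-fold, and between JB84 and JB93 7 of 8690 did, against 10.4% to 20.7% of genes in the other pairs within a genotype. Counts of the close pairs differed by more than counting noise, with a chi-square of 16.3 and 24.1 per degree of freedom over genes with at least 100 counts in the pair, where the other pairs had 188 to 225. Each close pair spans 2 column prefixes (named next), and an excess over counting noise does not show that its lines are separate replicates. They were fitted as separate samples, and their sum was an alternative. Nothing in the sources used here states that the lines of a close pair came from separate mice, so a p-value over the 6 lines may measure a spread that is in part technical. The names of the columns start with 1 of 3 numeric prefixes whose meaning is not given in the sources used here. JB81, JB84, and JB87 share the first, JB91, JB93, and JB97 the second, and all 9 tumors the third, so that prefix and material cannot be told apart in any comparison of tumors with lines.

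**Figure D1:**
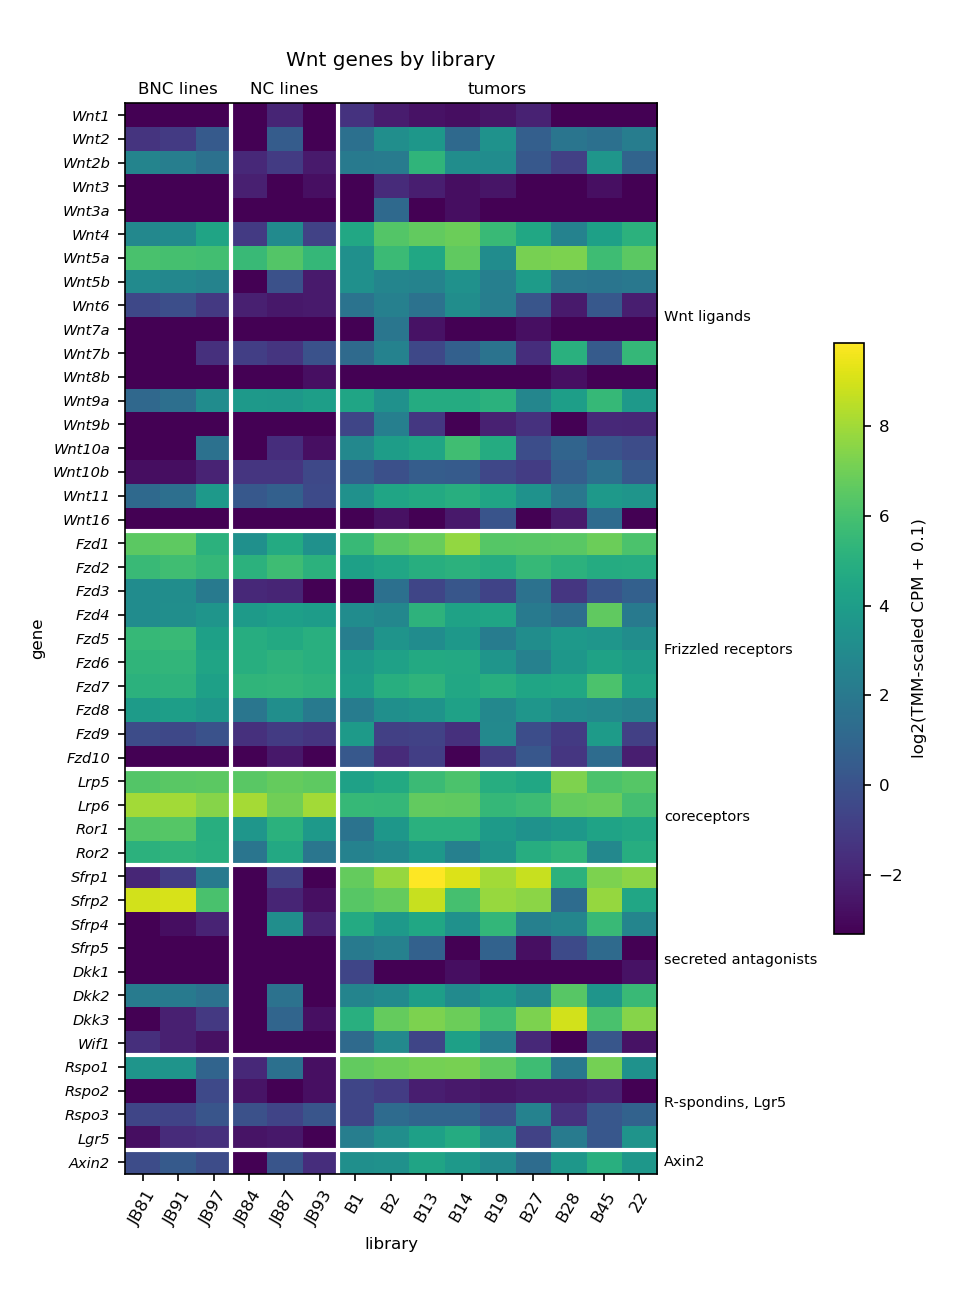
Level of each of the 45 genes (rows, by role) in each of the 15 libraries (columns), as the log2 of TMM-scaled CPM plus 0.1, with white lines between groups and roles. Sfrp2 is bright in the 3 BNC lines and dark in the 3 NC lines, and most antagonists and several ligands are bright in tumors only.

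Whether the added loss of Bap1 went with a different set of Wnt genes was asked in the 6 lines. Sfrp2, a secreted Wnt antagonist, rose in BNC lines, and it was the 1 member past an adjusted p of 0.01 and a 2-fold change (1 of 24 tested), where 1.1% of the 12376 genes tested passed in either direction and 0.444% passed with a higher level in BNC lines. At an adjusted p under 0.05, 3 members were higher (Sfrp2, the ligand Wnt2b, and the receptor Fzd3) and none was lower, against 5.78% of all genes higher and 14.2% in either direction. All 3 are among the 4 members (with Fzd9) that had fewer than 10 counts in every NC line and passed the filter on low counts through the BNC lines, so a difference was built into their being tested. At an unadjusted p under 0.05, 11 members passed, where 35.6% of all genes did. The call of Sfrp2 was lost without JB81, JB91, JB84, or JB93, where edgeR called 0 members. At an unadjusted p under 0.05 (edgeR), 8 of 25, 7 of 25, 9 of 26, and 7 of 26 members passed in these fits. Of all genes, 2910 of 12919, 2843 of 12929, 2872 of 12756, and 2897 of 12759 did. By contrast, 3 members were called without JB97, where 7.57% of all genes were, and 8 without JB87, where 19.7% were. DESeq2 called 6 members higher in BNC lines and none lower (Fzd1, Fzd3, Fzd8, Sfrp2, Wnt2b, and Wnt5b), where it called 5.88% of all genes higher.

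The fitted fold was positive in 19 of the 24 tested members and negative in 5, with a median log2 fold change of 1.30 beside -0.0023 over all genes tested. Members that passed through reads in BNC lines alone are part of that median, and among the 14 members with at least 10 counts in every line 9 were higher and the median was 0.16. In 9 of the 24 tested members every BNC line lay above every NC line (Wnt2b, Wnt5b, Wnt11, Fzd1, Fzd3, Fzd8, Fzd9, Ror2, and Sfrp2), a pattern found in 21.5% of all genes, and in 2 every BNC line lay below (Wnt9a and Fzd4), as in 19.9% of all genes. By role, 5 of 6 tested ligands, 7 of 9 Frizzled receptors, 3 of 4 coreceptors, 2 of 2 antagonists, 1 of 2 R-spondin genes, and Axin2 had a higher mean on the log scale in BNC lines. The other 21 members had too few reads to be tested in lines. These were Wnt1, Wnt2, Wnt3, Wnt3a, Wnt6, Wnt7a, Wnt7b, Wnt8b, Wnt9b, Wnt10a, Wnt10b, Wnt16, Fzd10, Sfrp1, Sfrp4, Sfrp5, Dkk1, Dkk3, Wif1, Rspo2, and Lgr5, of which 10 did not exceed 3 counts in any line.

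**Figure D2:**
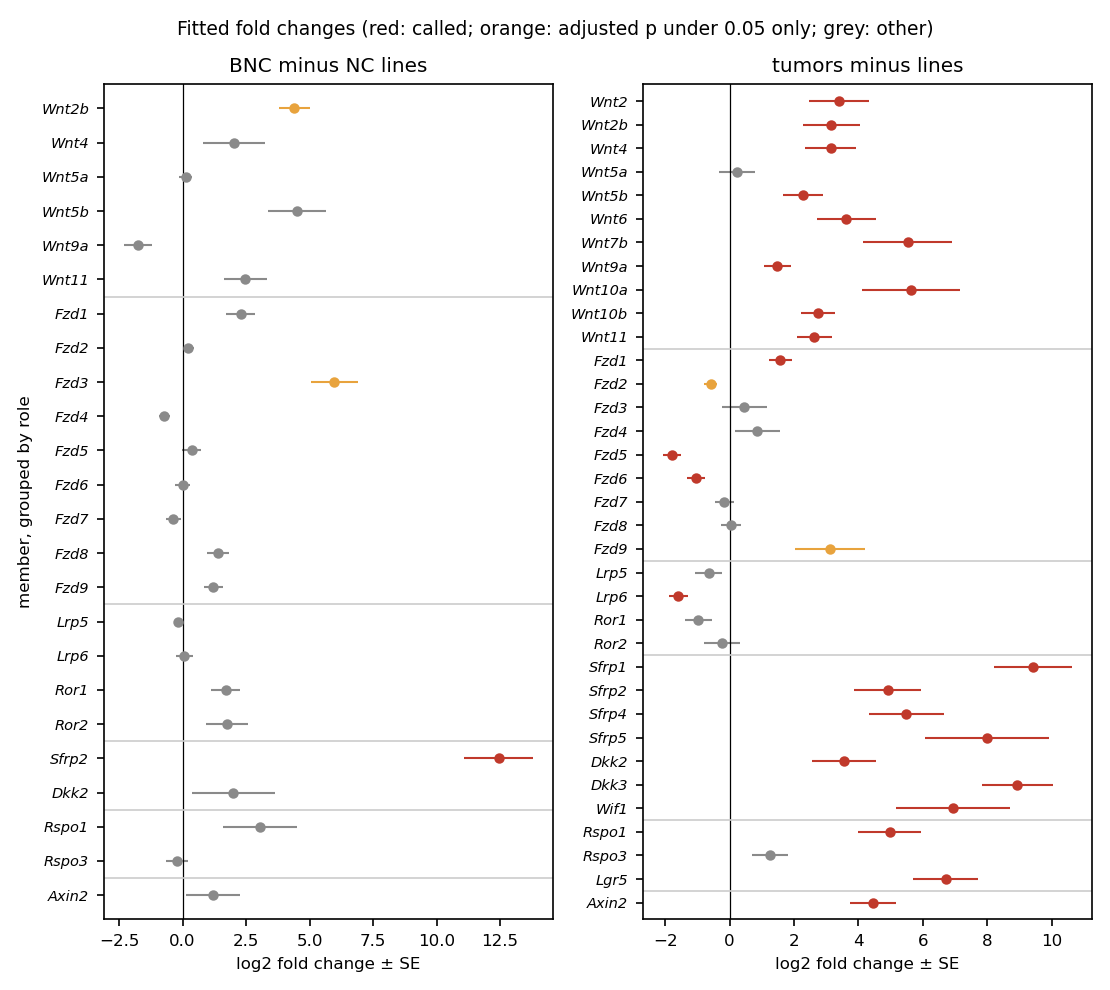
Fitted log2 fold change (points) with its standard error (bars) for the 24 members tested between BNC and NC lines (left) and the 35 tested between tumors and lines (right), grouped by role. On the left Sfrp2 alone is called (red) and Wnt2b and Fzd3 pass an adjusted p of 0.05 only (orange), whereas on the right 21 members are called above 0 and 3 below. The fitted value of Sfrp5, at 0 in every line, depends on the prior count.

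Sfrp2 (chromosome 3 of GRCm38, 83766321 to 83774316, plus strand) was found at 501 (JB81), 531 (JB91), and 68.1 CPM (JB97) in BNC lines, against 0 (JB84), 0.154 (JB87), and 0.0453 CPM (JB93) in NC lines. All BNC lines were above all NC lines, and JB97 stood well below JB81 and JB91. BNC lines averaged 367 ± 259 CPM (SD, n = 3), NC lines averaged 0.0665 ± 0.0793 CPM (SD, n = 3), and the fitted log2 fold change was 12.44 (SE 1.34, adjusted p = 0.0092, edgeR). NC lines held 3 counts in all, against 26278 in BNC lines, which is a pooled ratio of 6534 with a 95% counting interval of 2236 to 31686. Within each column prefix the order was the same, and with the prefix as a covariate the log2 fold change was 12.61 (SE 1.43, adjusted p = 0.036, edgeR). Leaving out JB81, JB91, JB84, or JB93 in turn gave adjusted p-values of 0.052, 0.055, 0.067, and 0.069, and leaving out JB97 or JB87 gave 0.0014 and 0.0054. Without both JB81 and JB91, the lines near 0 in Msln and keratins, the log2 fold change was 9.97 (SE 0.82, adjusted p = 0.18, edgeR), so the direction stayed and the call was lost. With each close pair summed it was 12.06 (adjusted p = 0.25, edgeR), which also ended the call. The part of the missing mesothelial markers in this difference was not tested.

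Wnt2b, a ligand of the β-catenin branch (chromosome 3, 104945272 to 104961921, minus strand), was found at 6.08 (JB81), 4.89 (JB91), and 2.9 CPM (JB97) in BNC lines, against 0.189 (JB84), 0.386 (JB87), and 0.0905 CPM (JB93) in NC lines. The BNC lines were all above the NC lines, with a fitted log2 fold change of 4.41 (SE 0.63, adjusted p = 0.015, edgeR). From 323 against 10 counts the pooled ratio was 24.1 with a 95% counting interval of 12.9 to 50.7. Fzd3, a Frizzled receptor known for its role in axon guidance and planar polarity (chromosome 14, 65192449 to 65262463, minus strand), was found at 8.35 (JB81), 8.71 (JB91), and 4.01 CPM (JB97) in BNC lines, against 0.189 (JB84), 0.154 (JB87), and 0 CPM (JB93) in NC lines. No BNC line overlapped an NC line, and JB97 was again the lowest BNC line. Its fitted log2 fold change was 5.97 (SE 0.92, adjusted p = 0.017, edgeR), and 492 against 5 counts gave a pooled ratio of 73.4 (95% counting interval 31.2 to 227). With the prefix as a covariate, the log2 fold changes of Wnt2b and Fzd3 were 4.78 and 6.51, with adjusted p-values of 0.042 and 0.0496 (edgeR). Leaving out JB81, JB91, JB84, or JB93 in turn took the adjusted p of each gene past 0.05, up to 0.090 for Wnt2b and 0.095 for Fzd3. Without both JB81 and JB91 they were 3.70 and 5.11, with adjusted p-values of 0.28 and 0.29.

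**Figure D3:**
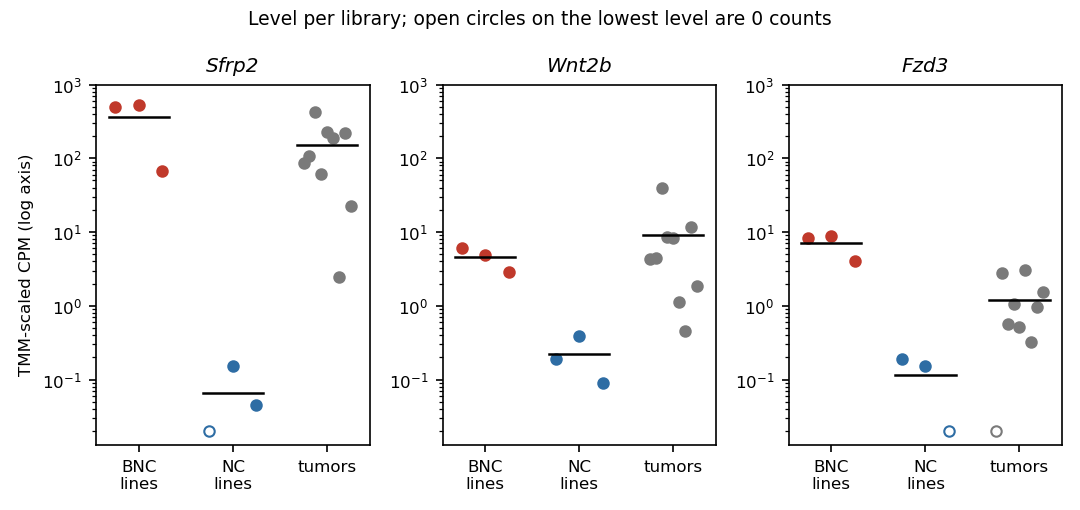
TMM-scaled CPM of Sfrp2, Wnt2b, and Fzd3 on a log axis, 1 point per library, with bars at the group means. The BNC lines (red) lie above the NC lines (blue) for each of the 3 genes, and the tumors (grey) spread over a wide range, with Fzd3 below every BNC line in all 9.

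The sequences just upstream of the RefSeq starts of Sfrp2 and Wnt2b are shown because these are the antagonist and the ligand that passed an adjusted p of 0.05 in BNC lines. They are the 250 bases before the RefSeq start of each gene (GRCm38.p6), 5′ to 3′ on the strand of the gene, with CG dinucleotides in capitals. The window of Sfrp2 is chr3:83766071-83766320 on the plus strand and that of Wnt2b is chr3:104961710-104961959 on the minus strand. The end of Wnt2b in GENCODE (104961921) lies inside its window, so most of that window is within the GENCODE gene.
Sfrp2: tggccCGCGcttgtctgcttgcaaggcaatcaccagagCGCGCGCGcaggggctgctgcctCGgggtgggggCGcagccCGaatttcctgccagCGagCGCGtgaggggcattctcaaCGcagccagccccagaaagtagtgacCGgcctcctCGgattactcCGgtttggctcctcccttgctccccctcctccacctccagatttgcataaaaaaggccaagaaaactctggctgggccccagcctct
Wnt2b: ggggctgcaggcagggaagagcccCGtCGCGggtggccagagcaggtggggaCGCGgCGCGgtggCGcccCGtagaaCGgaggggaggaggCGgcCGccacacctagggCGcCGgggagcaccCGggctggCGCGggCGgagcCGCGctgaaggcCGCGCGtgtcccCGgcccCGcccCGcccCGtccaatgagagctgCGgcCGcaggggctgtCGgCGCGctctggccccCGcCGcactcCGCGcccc
The Sfrp2 window holds 16 CG pairs and 63.6% G or C, and 25.4% of the 32851 promoter windows of this length held at least as many CG pairs. The Wnt2b window holds 36 CG pairs and 80.8% G or C, a number of pairs reached by 2.58% of windows, where the median window had 6. The TCF and LEF motif, searched as CTTTGAT or CTTTGAA on both strands, is in neither window and in 7.48% of all windows. Of the 45 members, 30 had a promoter entry, and 3 of them held the motif in an entry (Wnt5b, Wnt11, and Dkk1).

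Among the other ligands in lines, Wnt5b, a close relative of Wnt5a, was found at 7.81 (JB81), 6.68 (JB91), and 5.76 CPM (JB97) in BNC lines, against 0 (JB84), 0.849 (JB87), and 0.0905 CPM (JB93) in NC lines. The BNC lines did not overlap the NC lines, but its log2 fold change of 4.50 (SE 1.14, adjusted p = 0.051, edgeR) missed the threshold. Its NC counts were 0 (JB84), 11 (JB87), and 2 (JB93), so it was tested largely through its reads in BNC lines. Wnt11, a ligand of cell movement, had a log2 fold change of 2.47 (SE 0.84, adjusted p = 0.095, edgeR) and its BNC mean rested largely on JB97 (14.1 CPM, against 2.19 and 2.74 CPM in JB81 and JB91). Wnt9a went the other way, with 4.44 ± 3.54 CPM (SD, n = 3) in BNC and 14.5 ± 1.78 CPM (SD, n = 3) in NC lines and a log2 fold change of -1.74 (SE 0.56, adjusted p = 0.084, edgeR). Wnt4, a ligand of mesothelial and kidney development, reached 20.6 CPM in JB97 and was at 0.378 and 0.498 CPM in the close pair JB84 and JB93, where JB87 had 7.72 CPM. Its groups overlapped, and its log2 fold change was 2.02 (SE 1.21, adjusted p = 0.27, edgeR). Wnt5a was similar in all 6 lines, between 44.1 and 79.6 CPM, with a log2 fold change of 0.12 (SE 0.25, adjusted p = 0.75, edgeR).

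The main Frizzled receptors were read in every line. Fzd1 was found at 94.4 (JB81), 95.8 (JB91), and 35.4 CPM (JB97) in BNC lines, against 9.69 (JB84), 26.5 (JB87), and 10 CPM (JB93) in NC lines, so that the lines of the 2 genotypes did not overlap (log2 fold change 2.28, SE 0.58, adjusted p = 0.051, edgeR). Fzd8, known as a high-affinity receptor for Wnts, had 14.8 ± 2.14 CPM (SD, n = 3) in BNC and 5.57 ± 3.08 CPM (SD, n = 3) in NC lines and a log2 fold change of 1.39 (SE 0.42, adjusted p = 0.073, edgeR). Fzd4, also the receptor of norrin in vessels, was lower in every BNC line, at 9.72 ± 1.83 CPM (SD, n = 3) against 15.8 ± 1.45 CPM (SD, n = 3) (log2 fold change -0.72, SE 0.21, adjusted p = 0.069, edgeR). For Fzd2, Fzd5, Fzd6, and Fzd7 the log2 fold changes were 0.23, 0.35, 0.00, and -0.37, with adjusted p-values of 0.49, 0.53, 0.99, and 0.40. None of these differences passed the threshold with edgeR.

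Coreceptors of the β-catenin branch were nearly level between genotypes, and those of the noncanonical branch leaned to BNC lines without passing the test. The log2 fold changes were -0.16 for Lrp5 and 0.07 for Lrp6, with standard errors of 0.13 and 0.34. Ror1 was found at 81.3 (JB81), 82.4 (JB91), and 31 CPM (JB97) in BNC lines, against 12.3 (JB84), 34.3 (JB87), and 13.3 CPM (JB93) in NC lines (log2 fold change 1.70, SE 0.57, adjusted p = 0.092, edgeR). Ror2 was found at 35.7 (JB81), 38.7 (JB91), and 31.7 CPM (JB97) in BNC lines, against 3.34 (JB84), 24.9 (JB87), and 3.53 CPM (JB93) in NC lines (log2 fold change 1.73, SE 0.82, adjusted p = 0.18, edgeR). In both genes JB84 and JB93 were the lowest lines and JB87 lay near JB97, the highest NC line of Ror1 above the lowest BNC line.

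Axin2, the feedback target of β-catenin signaling, was low in every line. It was found at 0.744 (JB81), 1.24 (JB91), and 0.751 CPM (JB97) in BNC lines, against 0 (JB84), 1 (JB87), and 0.226 CPM (JB93) in NC lines, and its log2 fold change was 1.2 (SE 1.07, adjusted p = 0.44, edgeR). Rspo1 reached 11.7 and 11.3 CPM in JB81 and JB91 but 1.8 CPM in JB97, below the 2.86 CPM of the NC line JB87 (log2 fold change 3.05, SE 1.44, adjusted p = 0.18, edgeR).

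The rest of the pathway was read from a list of 57 genes for ligand release, other surface proteins, other antagonists, intracellular transducers, TCF and LEF factors, and targets. Of 43 tested in lines, 1 was called (Nkd2, higher in BNC lines), beside the 1.1% of all genes given above, and 16 passed an unadjusted p of 0.05, beside the 35.6% of all genes. At an adjusted p under 0.05, 8 were higher and 2 lower in BNC lines, where 5.78% of all genes were higher and 14.2% passed in either direction. Every BNC line lay above every NC line in 14 and below in 2, where 21.5% and 19.9% of all genes did. Nkd2, which restrains Dishevelled, was found at 12 (JB81), 13.2 (JB91), and 9.76 CPM (JB97) in BNC lines, against 0.378 (JB84), 0.617 (JB87), and 0.453 CPM (JB93) in NC lines (log2 fold change 4.57, SE 0.33, adjusted p = 0.0049, edgeR). Its relative Nkd1 was found at 45 (JB81), 49.1 (JB91), and 3.1 CPM (JB97) in BNC lines, against 0 (JB84), 0.54 (JB87), and 0.0905 CPM (JB93) in NC lines (log2 fold change 7.38, SE 1.53, adjusted p = 0.033, edgeR). The call of Nkd2 was lost without JB81, JB91, JB84, or JB93, with adjusted p-values of 0.052, 0.055, 0.047, and 0.045 (edgeR). It was also lost in edgeR with the close pairs summed and with the prefix as a covariate. Without both JB81 and JB91 its log2 fold change was 4.31 (SE 0.48, adjusted p = 0.19, edgeR). Nkd1 and Nkd2 were near 0 in all NC lines, and JB97 was far below JB81 and JB91 for Nkd1 only. Nkd1, and Tnfrsf19 in the next group, had fewer than 10 counts in every NC line, so both were tested only through their reads in BNC lines and a difference was built in. Nkd2 had 6 (JB84), 8 (JB87), and 10 (JB93) counts in NC lines, so it too was tested largely through its reads in BNC lines.

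At the adjusted p of 0.05, further genes were higher in BNC lines. The TCF repressor Tcf7l1 had a log2 fold change of 1.70 (SE 0.29, adjusted p = 0.022, edgeR), the Wnt receptor Ryk one of 1.84 (SE 0.34, adjusted p = 0.025, edgeR), and the Wnt carrier Wls one of 1.31 (SE 0.27, adjusted p = 0.032, edgeR). Tnfrsf19, a TNF receptor family member and Wnt target, was at 12.6 and 11.6 CPM in JB81 and JB91 but at 0.551 CPM in JB97, and NC lines had at most 0.0772 CPM (log2 fold change 8.28, SE 1.71, adjusted p = 0.032, edgeR). The β-catenin cofactor Bcl9l differed by 1.05 (SE 0.24, adjusted p = 0.041, edgeR) on the log2 scale. Porcn, the acyltransferase that attaches the lipid to Wnts, was lower instead, at 0.909 (JB81), 0.705 (JB91), and 0.651 CPM (JB97) in BNC lines, against 15.2 (JB84), 1.47 (JB87), and 16.9 CPM (JB93) in NC lines (log2 fold change -3.90, SE 0.91, adjusted p = 0.042, edgeR). Its NC line JB87 lay near the BNC lines and far from JB84 and JB93. Nkd1 and these 6 genes all went past an adjusted p of 0.05 when JB81, JB91, JB84, or JB93 was left out (0.095 to 0.16), and Bcl9l and Porcn also did without JB97 (0.055 and 0.077). Without both JB81 and JB91 the log2 fold change of Nkd1 was 3.91 (adjusted p = 0.41). The other 2 genes past an adjusted p of 0.05 were the R-spondin receptor Lgr6, lower in BNC lines (log2 fold change -4.27, SE 1.06, adjusted p = 0.048, edgeR), and Vangl2, of planar polarity, higher (0.84, SE 0.21, adjusted p = 0.047, edgeR). Both went past 0.05 without JB81, JB91, JB84, or JB93 (0.16 to 0.19). β-catenin itself (Ctnnb1) had a log2 fold change of 0.37 (SE 0.20, adjusted p = 0.24, edgeR).

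How the tumors compared with the cultured lines was read in all 15 libraries, with the fold taken against the mean of the BNC and NC lines on the log scale. Of the members, most ligands and all antagonists that could be tested were called higher in tumors, and Fzd5, Fzd6, and Lrp6 lower. For Sfrp2 this holds on the log scale only, since its mean was 150 CPM in tumors and 183 CPM in lines. Of 35 members tested, 21 were called higher in tumors and 3 lower, where 28.2% of the 15675 genes tested were called higher and 11.5% lower. The 11 members that lines alone had too few reads to test passed the filter here through the tumors, so a higher level in tumors was built into their being tested, and all 11 were called higher. Among the 24 members tested in both comparisons, 10 were called higher and 3 lower. The median log2 fold change was 2.75 over the 35 members and 0.376 over all genes tested. Among the 14 members with at least 10 counts in every library, 7 were higher in tumors and the median was 0.036. When each library was left out in turn, 12 of the 24 calls held every time (Axin2, Dkk3, Fzd1, Fzd5, Lgr5, Lrp6, Rspo1, Sfrp1, Sfrp2, Sfrp4, Wnt10b, and Wnt11) and 12 were lost at least once (Dkk2, Fzd6, Sfrp5, Wif1, Wnt2, Wnt2b, Wnt4, Wnt5b, Wnt6, Wnt7b, Wnt9a, and Wnt10a). The number called was 13 of 37 members tested without JB81, 14 of 37 without JB93, and 15 of 37 without JB91. Of all genes tested in these fits, 5368 of 16353, 5432 of 16280, and 5422 of 16356 were called. Every tumor lay above every line in 6 members (Wnt2, Sfrp1, Dkk2, Dkk3, Lgr5, and Axin2), as in 16.4% of all genes, and below in 2 (Fzd5 and Lrp6), as in 8.92% of all genes.

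Markers of other cell types were plentiful in the tumor libraries. Leukocyte markers summed to between 396 and 1507 CPM in tumors (7 genes, led by Csf1r in every tumor) and to at most 6.05 CPM in lines, where Ptprc, Adgre1, and Cd3e had at most 1 count per line. Fibroblast markers summed to between 839 and 5774 CPM in tumors (6 genes, led by Dcn in 8 tumors and by Pdgfra in B28) and to between 23.1 and 92.8 CPM in lines. Endothelial markers summed to between 79.4 and 746 CPM in tumors (5 genes, led by Pecam1, Kdr, or Cdh5) and to at most 57.2 CPM in lines, where Kdr led in JB97 and the NC lines and Tie1 and Cldn5 were at 0.

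Surrounding tissue was also present. Muscle markers summed to 41887 CPM in B1, 33637 CPM in B19, and 23644 CPM in B45, led by Acta1, and to between 229.8 and 8629.6 CPM in the other tumors. Markers of lung epithelium summed to 45597 CPM in B2, led by Scgb1a1 (30128 CPM), and to at most 86.8 CPM in the other tumors. Muscle markers did not exceed 7.01 CPM and lung markers 1.07 CPM in any line. The part of these cells in the values of the Wnt genes was not tested, and in bulk RNA fewer cells of a type and less RNA per cell cannot be told apart. Without B1, B2, B19, and B45, 12 of the 24 calls remained and no other member was called. That is 12 of 33 members tested, beside 4597 of the 14911 genes tested in the same fit. Those 12 were Axin2, Dkk3, Fzd1, Fzd5, Lgr5, Lrp6, Rspo1, Sfrp1, Sfrp2, Wnt7b, Wnt10b, and Wnt11.

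Of 11 ligands tested, 10 rose in tumors, where 28.2% of all genes did, and Wnt5a did not pass. Of the 10, Wnt2, Wnt6, Wnt7b, Wnt10a, and Wnt10b were tested only through their reads in tumors. Wnt4 had a lowest value of 5.56 CPM, a median of 35.4 CPM, and a highest value of 121 CPM in tumors, against 7.3 ± 7.36 CPM (SD, n = 6) in lines, and 7 of 9 tumors were above every line (log2 fold change 3.14, SE 0.80, adjusted p = 0.0037, edgeR). Wnt10a, a ligand of skin and tooth development, was at most 2.95 CPM in lines and had a lowest value of 0.744 CPM, a median of 7.13 CPM, and a highest value of 56.4 CPM in tumors (log2 fold change 5.63, SE 1.53, adjusted p = 0.0056, edgeR). Its tumors split into 5 above every line and 4 (B27, B28, B45, and 22) below the level of JB97. Wnt7b, a ligand of lung and epithelial growth, did not exceed 0.905 CPM in lines but reached 33.1 CPM in B28 and 43.4 CPM in tumor 22, the other tumors lying between 0.228 and 5.62 CPM (log2 fold change 5.54, SE 1.39, adjusted p = 0.0033, edgeR). Wnt5a had a lowest value of 8.45 CPM, a median of 54.1 CPM, and a highest value of 152 CPM in tumors, on either side of the lines, and a log2 fold change of 0.23 (SE 0.55, adjusted p = 0.74, edgeR).

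The remaining ligand calls had smaller folds or lower levels. The log2 fold changes were 3.62 for Wnt6, 3.41 for Wnt2, 3.16 for Wnt2b, 2.75 for Wnt10b, 2.63 for Wnt11, 2.28 for Wnt5b, and 1.48 for Wnt9a. Wnt5b averaged 6.98 CPM in tumors and 6.75 CPM in BNC lines, and only 3 of 9 tumors were above every line. Its fold is taken against a mean on the log scale that holds the NC lines, at a mean of 0.313 CPM. Wnt2b had a lowest value of 0.456 CPM, a median of 4.39 CPM, and a highest value of 40.1 CPM in tumors, so the tumors covered the range of the BNC lines and 4 lay above it. Wnt3a, Wnt7a, Wnt9b, and Wnt16 were at 0 in every line and not tested. Wnt3a, Wnt7a, and Wnt9b had their highest level in B2, at 2.14, 3.57, and 5.06 CPM, the tumor with lung epithelial markers. Wnt1 and Wnt8b stayed at or below 3 counts in every library, and Wnt3 did not exceed 0.204 CPM in any tumor.

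Receptors went in both directions. Fzd1 rose, with a lowest value of 47.4 CPM, a median of 88.5 CPM, and a highest value of 213 CPM in tumors against 45.3 ± 39.8 CPM (SD, n = 6) in lines (log2 fold change 1.57, SE 0.36, adjusted p = 0.0017, edgeR), although only 3 tumors were above the highest line. Its call was lost with the close pairs summed (edgeR). Fzd5 fell in tumors by 1.78 on the log2 scale (SE 0.28, adjusted p = 1.2e-04, edgeR), from 33.3 ± 11.8 CPM (SD, n = 6) in lines to 9.54 ± 3.4 CPM (SD, n = 9), with every tumor below every line. Fzd6, which acts in planar polarity, fell by 1.04 (SE 0.28, adjusted p = 0.0059, edgeR), close to the 2-fold limit, with 7 tumors below every line, and its call was lost in 15 of 22 alternatives. Fzd9 was at most 0.901 CPM in lines and reached 14.6, 7.21, and 14.9 CPM in B1, B19, and B45, the tumors richest in muscle markers, and at most 0.776 CPM in the others (log2 fold change 3.12, SE 1.09, adjusted p = 0.022, edgeR). Lrp6, the main coreceptor in lines, fell by 1.59 on the log2 scale (SE 0.28, adjusted p = 2.8e-04, edgeR), from 225 ± 58.7 CPM (SD, n = 6) to 74.7 ± 30.7 CPM (SD, n = 9), with no overlap. Fzd2, Fzd4, Fzd7, and Fzd8 had log2 fold changes of -0.59, 0.86, -0.17, and 0.05 and were not called, and Fzd10 had 1 count in all lines and 109 in tumors. Lrp5, Ror1, and Ror2 had log2 fold changes of -0.65, -0.98, and -0.23 and did not pass.

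All 7 tested antagonists among the members were called higher in tumors, and Dkk1, with at most 2 counts in any library, was not tested. Of the 7, 5 (Sfrp1, Sfrp4, Sfrp5, Dkk3, and Wif1) were tested only through their reads in tumors, so that a higher level there was built in, and 28.2% of all genes were called higher. Sfrp1 did not exceed 4.21 CPM in lines and had a lowest value of 35 CPM, a median of 222 CPM, and a highest value of 929.8 CPM in tumors (log2 fold change 9.42, SE 1.2, adjusted p = 1.9e-05, edgeR). Dkk3, a divergent Dickkopf protein, did not exceed 1.85 CPM in lines and had a lowest value of 31.4 CPM, a median of 119.1 CPM, and a highest value of 495 CPM in tumors (log2 fold change 8.94, SE 1.11, adjusted p = 1.5e-05, edgeR). For both genes all 9 tumors were above all 6 lines. Sfrp5 was at 0 in every line, and its mean of 1.73 CPM in tumors was at least 10.9-fold higher than the mean floor of 3 counts per line, although B14 and tumor 22 were at 0 as well (adjusted p = 0.0042, edgeR). Wif1 had 10 counts in all lines together and 692 in tumors, a pooled ratio of 50.6 (95% counting interval 27.4 to 106), and 6 of 9 tumors were above every line (log2 fold change 6.93, SE 1.77, adjusted p = 0.0046, edgeR). Sfrp4 was at 8.95 CPM in JB87 and at most 0.15 CPM in the other lines, and had a lowest value of 5.16 CPM, a median of 14.1 CPM, and a highest value of 48.8 CPM in tumors (log2 fold change 5.49, SE 1.17, adjusted p = 0.0011, edgeR). Sfrp2, in contrast, was called although no tumor lay outside the range of the lines, with a lowest value of 2.46 CPM, a median of 108 CPM, and a highest value of 429 CPM, since the fold is taken against a mean on the log scale that holds the 3 NC lines near 0 (log2 fold change 4.91, SE 1.04, adjusted p = 0.0010, edgeR). No tumor exceeded the 531 CPM of JB91. The median log2 fold change of the 7 antagonists was 6.93, or 5.49 with Sfrp5 set to its bound.

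Lgr5, a receptor of R-spondins and a marker of epithelial stem cells, had at most 0.25 CPM in lines and a lowest value of 0.502 CPM, a median of 8.89 CPM, and a highest value of 27.7 CPM in tumors, all 9 above the lines (log2 fold change 6.71, SE 1.01, adjusted p = 7.5e-05, edgeR). Lgr5 too was tested only through its reads in tumors, so that a higher level there was built in. Rspo1 rose as well, with a lowest value of 3.83 CPM, a median of 103 CPM, and a highest value of 140.5 CPM in tumors and 4.64 ± 5.39 CPM (SD, n = 6) in lines (log2 fold change 4.97, SE 0.98, adjusted p = 6.0e-04, edgeR). Its tumors fell into 7 between 54.5 and 140.5 CPM and the pair B28 and 22 at 3.83 and 10.3 CPM, inside the range of the lines. Rspo3 was low everywhere, at most 5.66 CPM, with a log2 fold change of 1.25 (SE 0.56, adjusted p = 0.065, edgeR), and Rspo2 had too few reads for either test. Axin2 rose, with a lowest value of 2.42 CPM, a median of 12.5 CPM, and a highest value of 32.2 CPM in tumors against 0.661 ± 0.469 CPM (SD, n = 6) in lines, with no overlap (log2 fold change 4.47, SE 0.71, adjusted p = 1.2e-04, edgeR). Of the 57 other pathway genes, 50 were tested in this comparison, 13 were called higher and 9 lower, where 28.2% and 11.5% of all genes were. Of the 13, 5 (Rnf43, Celsr3, Frzb, Sostdc1, and Lef1) were tested only through their reads in tumors, so that a higher level there was built in. Of the 4 TCF and LEF genes, Lef1 and Tcf7 rose (log2 fold changes 4.34 and 2.03) and Tcf7l1 fell (-1.34). Of 5 tested target genes, Tnfrsf19 rose (4.30), Myc fell (-1.14), and Ccnd1, Ccn4, and Cd44 were not called (-1.56, -1.08, and -0.68). Among 21 intracellular transducers 4 rose and 4 fell, with Apc, of the complex that degrades β-catenin, among the latter (-1.52).

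Which member led each role was compared per kilobase of exon, since a longer gene collects more reads. In every line Wnt5a led the ligands, with a mean of 7.69 ± 1.66 CPM per kb (SD, n = 6), ahead of Wnt9a at 2.84 ± 1.81 CPM per kb. In tumors the leading ligand was Wnt4 in 4 (B2, B13, B14, and B19), Wnt5a in 3 (B27, B28, and 22), and Wnt9a in 2 (B1 and B45), and all 18 ligands together made 27 to 92 CPM per kb, above the 11.1 to 23.2 CPM per kb of the lines. Fzd1 led the Frizzled receptors in JB81, JB91, and all 9 tumors, and Fzd2 in the other 4 lines. The summed Frizzled level of tumors, 32 to 79.9 CPM per kb, overlapped that of lines, 34.1 to 66.6 CPM per kb. Lrp6 led the coreceptors in 5 lines and 6 tumors. Antagonists summed to 33.6 CPM per kb in JB97 and 234 and 248 CPM per kb in JB81 and JB91, and Sfrp2 made at least 94.2% of it. They summed to at most 3.68 CPM per kb in NC lines and to between 85.7 and 468 CPM per kb in tumors. Among tumors Sfrp1 led in 4, Sfrp2 in 3, and Dkk3 in 2 tumors (B28 and 22).

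**Figure D4:**
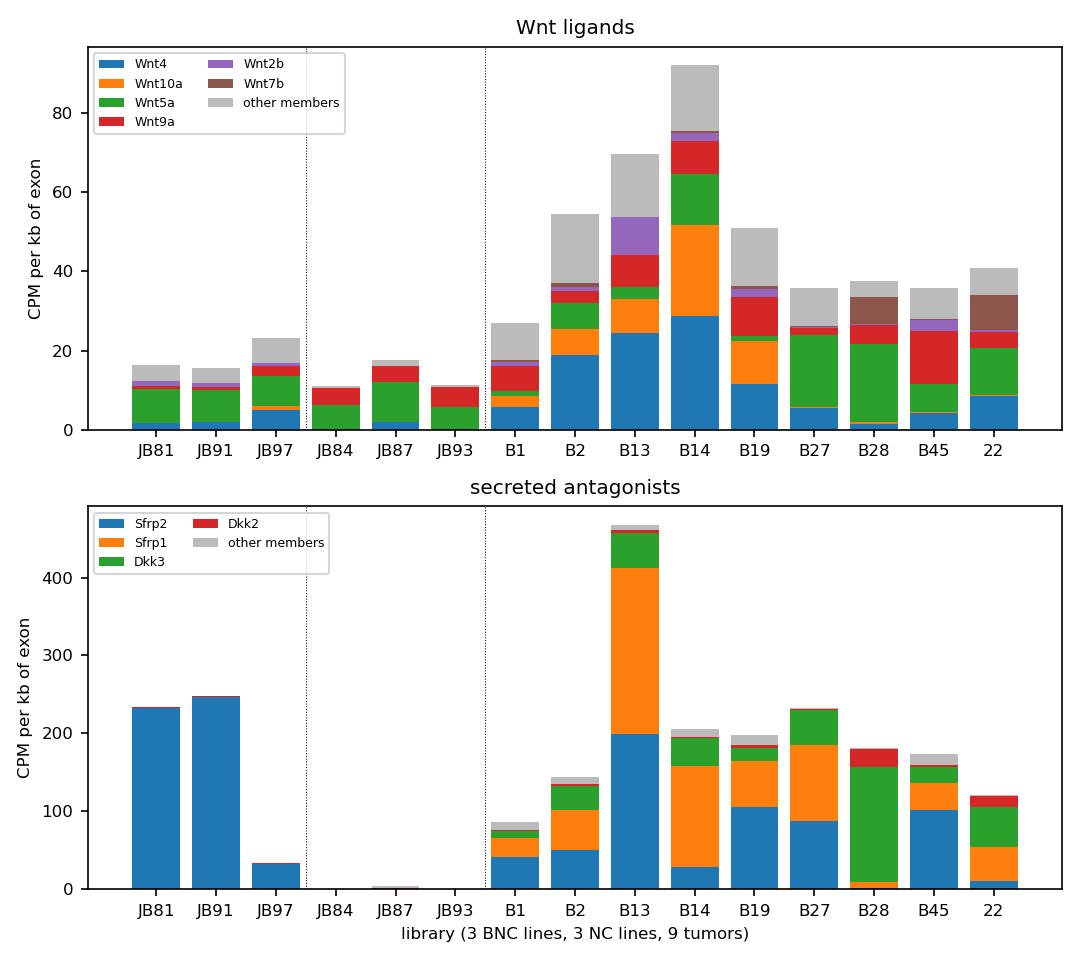
Stacked levels in CPM per kilobase of exon of the Wnt ligands (top) and secreted antagonists (bottom) in each library, the most abundant members in color and the others in grey. Wnt5a makes the largest ligand share in each line, the ligand total is higher in each tumor than in any line, and the antagonist total is near 0 in NC lines and made of Sfrp2 in BNC lines.

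B28 and tumor 22 shared a profile among the tumors. They had the highest levels of Wnt7b, of Dkk2 (85.6 and 48.1 CPM, against at most 16.6 CPM in the others, with a log2 fold change over lines of 3.55), and of Dkk3 (495 and 176 CPM, against at most 152 CPM). They had the lowest levels of Rspo1 and of Sfrp2 (2.46 and 22.5 CPM, against at least 62 CPM). Over all genes with at least 10 CPM, 12.1% differed more than 2-fold between B28 and 22, the third smallest share in a range of 9.29% to 45.2% over tumor pairs, so these tumors were among the closest over all genes as well. Beside these values, the fibroblast markers of both summed to 839 and 1161 CPM, the lowest of the 9 tumors, as were their leukocyte markers (396 and 419 CPM), and the mesothelial gene Upk3b stood at 3.65 and 27.8 CPM, against at least 116 CPM in the others. Among the fibroblast markers Pdgfra went the other way, highest in B28 (523 CPM) and 22 (200 CPM), against at most 130 CPM in the others. Krt18 was highest in the same tumors, at 437 and 506 CPM. These tumors were described together after their values had been seen, so no test was made, and the part of their cell makeup in the Wnt profile was not tested.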

How the data were processed

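Poly(A) RNA of 6 cell lines and 9 tumors was sequenced as single-end reads, mapped by the authors with TopHat2 (2.0.12) to the mouse genome mm10, and counted per gene with HTSeq-count, and the deposited values are raw counts. The strand setting is not given in the sources used here, so reads of overlapping and antisense genes cannot be told apart. The columns of the lines were placed in BNC or NC by the line names the study gives, and the other 9 columns were taken as the 9 tumor samples because they remained. A table of log2 DNA read counts with 14 columns of samples was not used.

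Counts were fitted with edgeR 4.0.16 (R 4.3.3; filterByExpr with a minimum count of 10, TMM, quasi-likelihood test), without covariates, as 6 lines in 2 groups and as 15 libraries in 3 groups. P-values were adjusted over all genes tested (Benjamini-Hochberg), and a call needed an adjusted p under 0.01 and more than a 2-fold change. DESeq2 1.42.0 was an alternative, and the fits were tested on simulated data. On simulated counts of the lines, edgeR recovered 37% of genes changed 4-fold and called 0 unchanged genes. DESeq2 recovered 81% of them and called 45 unchanged genes. Tumors entered as 1 group, and the numeric prefix of the columns could be a covariate only among the lines. Levels per kb used the union of GENCODE M21 exons. Counting intervals are exact at 95%.

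The 45 members, the other pathway list, and the marker lists were chosen with earlier results of these data known. Named with values in every line were members with an adjusted p under 0.05 between BNC and NC lines. Also named were the leading member of each role per kb, the members with the 5 largest folds in each direction among calls in tumors, those with 3 counts or fewer in every library, and at most 8 other pathway genes with an adjusted p under 0.05. The other genes named were picked for their roles or after their values were seen. Figures were drawn with matplotlib 3.10.9.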

Additional observations from a re-analysis of the deposited data

Results flagged for a closer look

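Single tumors stood apart from the other 8 in 15 of the 42 members that could be compared, by a gap to the nearest tumor that was large for the range of the 9 tumors by Dixon's ratio. The same held in 26.4% of all 19422 genes with more than 3 counts in a tumor, against the nominal rate of about 1 in 20 by chance, so nothing particular to the members is read from these values. B45 stood apart in 5 members, with Wnt10b at 2.84 CPM, Wnt16 at 2.33 CPM, Fzd4 at 98.1 CPM, Fzd7 at 70.3 CPM, and Fzd10 at 2.47 CPM. B2, the tumor with lung epithelial markers, stood apart with Wnt3a at 2.14 CPM, Wnt7a at 3.57 CPM, and Wnt9b at 5.06 CPM. B14 did with Wnt10a at 56.4 CPM, Fzd1 at 213 CPM, and Wif1 at 18.1 CPM, and B28 with Lrp5 at 162 CPM and Dkk3 at 495 CPM. Wnt2b reached 40.1 CPM in B13, where the next tumor had 11.9 CPM, and Rspo3 reached 5.66 CPM in B27. No value stood apart in B1, B19, or tumor 22, and why single tumors stood apart was not tested.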

How the results depend on the processing

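Between BNC and NC lines, 136 genes, 1 member, and 1 other pathway gene were called. These became 1761, 3, and 10 at an adjusted p under 0.05 with no fold limit, and 1846, 6, and 11 with DESeq2. At least 10 counts in every library gave 83, 0, and 0 (3642 genes and 6 members at an unadjusted p under 0.05, edgeR). With the column prefix as a covariate they were 1, 0, and 0 (3725 genes and 10 members at an unadjusted p under 0.05, edgeR). In 1 model of all 15 libraries they were 416, 1, and 4. With the close pairs summed, edgeR called 0, 0, and 0 (1508 genes and 5 members at an unadjusted p under 0.05) and DESeq2 536, 3, and 3, an alternative chosen after seeing the data, as was leaving out JB81 and JB91, which gave 0, 0, and 0 in edgeR (1765 genes and 8 members at an unadjusted p under 0.05). Leaving out 1 line at a time gave 0 to 2574 genes, 0 to 8 members, and 0 to 8 other pathway genes, highest without JB87. The cause was not tested beyond the fewer samples or genes that these alternatives hold.

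The numbers of the lines come from the study's table, where JB91 and JB97 both carry 2 and JB93, with 3, has no BNC partner, and of the same-numbered lines JB81 and JB84 also share a column prefix. Same-numbered lines had correlations of their deviations from -0.07 to 0.11, and with the replicate block 0 genes, 0 members, and 0 other pathway genes were called by edgeR (2146 genes and 6 members at an unadjusted p under 0.05).

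Between tumors and lines, 6220 genes and 24 members were called. At an adjusted p under 0.05 with no fold limit, 9600 genes passed. At least 10 counts in every library left 2796 genes and 5 members. The close pairs summed gave 4764 genes and 11 members in edgeR. In DESeq2 they gave 6623 genes and 24 members, of which 22 members were shared with the main fit. Leaving out B1, B2, B19, and B45, chosen after seeing the data, gave 4597 genes and 12 members. Leaving out 1 library at a time gave 5368 to 6488 genes and 13 to 24 members. None of the 19 genes followed through the alternatives reversed its fold. Sfrp2 lost its call in lines in 8 of the 15 alternatives that tested it (log2 9.97 to 13.49). Over the alternatives in which each gene was tested, calls in tumors were lost for Wif1 in 7 of 20, for Sfrp5 in 3 of 20, and for Fzd6 in 15 of 22. Without TMM the median log2 fold change of all genes moved from -0.0023 to -0.14 between lines and from 0.376 to 0.275 in tumors, and 16 in place of 19 tested members were higher in BNC lines (17 with the replicate block), so some small folds changed sign. Depth limits members near 3 counts, and the close pairs among the 6 lines limit the line comparison.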
